A study of Mus musculus with 3 samples.

Results

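The 34 genes described here are markers of DNA synthesis and cell division: 20 genes of the G2 phase and mitosis (G2/M) and 14 genes of the S phase. They were chosen by symbol, and each symbol matched 1 of the 32285 gene rows of the expression matrices. Peripheral blood mononuclear cells (PBMCs) of C57BL/6 mice were profiled as single cells in droplets, with 1 RNA library from young mice (8 weeks), 1 from aged mice (16 months) and 1 from aged mice (16 months) treated with glycyrrhizic acid for 1 month (aged-GA). Glycyrrhizic acid (GA) is a triterpenoid of liquorice root, and per the methods of the study it was injected into the tail vein of aged mice. The same methods name a control group that was injected with buffered saline by this route. The mice were female, the young ones were bought and the aged ones were reared in the laboratory. Per the study the cells came from several mice of each group, while each group has 1 library, and how their cells were combined was not given in the sources used here. A group was therefore 1 library, and no test between groups was possible. All intervals are 95% intervals that cover counting error only, not the spread between mice. Intervals of levels and of their ratios also leave out how unevenly single cells held the transcripts.

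A cell that divides passes from G1 through S, where DNA is copied, to G2 and mitosis (M), where the copies are separated. Genes of the S phase are switched on by E2F factors, whereas genes of G2/M are switched on later, largely through a promoter element called the CHR and through CCAAT boxes. Most lymphocytes in blood rest outside the cycle, and dividing cells in blood are mainly recently activated T and NK cells and newly formed plasma cells. Neutrophils and red cells of blood have left the cycle. A unique molecular identifier (UMI) marks 1 captured transcript, and levels are given as counts per 1000000 UMIs of the same cells (CPM). In this 3' assay a transcript gives about 1 UMI whatever its length, so CPM was not divided by length.

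Promoters were available for 28 of the 34 genes (RefSeq, GRCm38.p6, from 250 bases before to 50 bases after the annotated start), and they split the members along the same line as the phases. The CHR (TTTGAA, either strand) was found in 11 of 16 G2/M promoters, or 68.8%, and in 1 of 12 S promoters, that of Mcm2. Of all 27025 promoters, 20.2% held it. An E2F motif (TTCCCGC or TTCGCGC or TTGCCGC or TTGGCGC, either strand) was found in 8 of 12 S promoters and in 3 of 16 G2/M promoters (Mki67, Ccnb1 and Cdk1), against 10.9% of all promoters. CCAAT was common to both sets, with 14 of 16 and 10 of 12 promoters against 41.1% of all. Birc5, Nusap1, Tk1 and Tyms held none of the motifs. Promoters of Stmn1, Aurkb, Mcm4, Kif20a, Ccna2 and Tpx2 were not in the table.

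The 250 bases before the start are printed for 6 members whose levels set the results below apart. Mki67 encodes the proliferation marker Ki-67, and Cdk1 the kinase that drives entry into mitosis. Ube2c and Nusap1 were the members with the highest CPM in red cells. Mcm6 and Mcm5 encode subunits of the helicase that opens DNA for replication. Capitals mark every motif match, in 5' to 3' direction of the gene.
Mki67 (chr7:135716380-135716629, minus strand): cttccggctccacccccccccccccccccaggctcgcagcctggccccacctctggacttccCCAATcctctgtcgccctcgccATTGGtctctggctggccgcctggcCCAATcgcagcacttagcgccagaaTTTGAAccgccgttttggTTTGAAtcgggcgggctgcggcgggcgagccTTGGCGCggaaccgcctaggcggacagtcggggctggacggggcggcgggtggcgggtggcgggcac
Cdk1 (chr10:69352913-69353162, minus strand): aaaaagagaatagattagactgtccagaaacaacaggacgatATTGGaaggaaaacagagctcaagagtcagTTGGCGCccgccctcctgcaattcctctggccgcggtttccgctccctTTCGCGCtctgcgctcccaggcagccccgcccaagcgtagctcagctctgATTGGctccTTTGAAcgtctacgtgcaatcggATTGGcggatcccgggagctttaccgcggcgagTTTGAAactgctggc
Ube2c (chr2:164769679-164769928, plus strand): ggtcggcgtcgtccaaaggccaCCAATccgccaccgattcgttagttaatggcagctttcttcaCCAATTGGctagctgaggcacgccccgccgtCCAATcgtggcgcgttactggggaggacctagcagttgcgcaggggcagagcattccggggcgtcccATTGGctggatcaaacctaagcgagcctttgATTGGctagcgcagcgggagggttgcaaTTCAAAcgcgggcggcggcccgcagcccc
Nusap1 (chr2:119618048-119618297, plus strand): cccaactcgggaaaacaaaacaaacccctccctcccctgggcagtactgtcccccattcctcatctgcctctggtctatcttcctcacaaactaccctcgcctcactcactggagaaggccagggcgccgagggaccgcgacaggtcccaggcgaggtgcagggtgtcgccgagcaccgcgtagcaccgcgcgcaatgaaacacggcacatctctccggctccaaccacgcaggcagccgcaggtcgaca
Mcm6 (chr1:128359706-128359955, minus strand): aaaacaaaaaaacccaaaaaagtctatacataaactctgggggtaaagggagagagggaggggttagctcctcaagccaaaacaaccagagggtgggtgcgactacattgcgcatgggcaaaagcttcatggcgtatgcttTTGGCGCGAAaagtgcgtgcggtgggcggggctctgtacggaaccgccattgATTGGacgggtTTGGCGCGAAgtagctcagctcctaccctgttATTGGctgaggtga
Mcm5 (chr8:75109259-75109508, plus strand): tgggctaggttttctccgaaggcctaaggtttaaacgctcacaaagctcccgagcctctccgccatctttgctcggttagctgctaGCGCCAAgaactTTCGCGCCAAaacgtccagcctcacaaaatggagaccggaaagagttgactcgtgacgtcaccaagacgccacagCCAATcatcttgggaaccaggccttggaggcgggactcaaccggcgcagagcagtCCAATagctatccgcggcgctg

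In the Mki67 promoter the CHR matches began 116 and 98 bases before the start, with 3 CCAAT matches upstream of them and 1 E2F match at 67. In Cdk1 the CHR matches lay at 71 and 15, with CCAAT at 208, 80 and 48 and E2F matches at 178 and 130. The Ube2c promoter held 6 CCAAT matches and 1 CHR match at 29. The Mcm6 and Mcm5 promoters held 4 and 3 E2F matches, some of which overlapped on opposite strands, and no CHR. The Nusap1 window held no match, which says only that these letters are absent from it.

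Cells were kept by the filters of the study, which left 8851 young, 10238 aged and 12648 aged-GA cells with a median of 4671, 3810.5 and 4752 UMIs. Cell types were set by gates on fixed markers: a cell entered a gate with UMIs of at least 3 markers of 1 type (4 for plasma cells), or with at least 50% haemoglobin UMIs for red cells. The T gate held 5313, 2190 and 3547 cells (young, aged and aged-GA), the B gate 2243, 4062 and 5357, the NK gate 296, 218 and 233 and the erythroid gate 344, 226 and 1010. The plasma gate held 3, 62 and 71 cells and the neutrophil gate 13, 746 and 460, so young cells of these gates were not compared. Libraries shared 50 to 62 cell barcodes by pair. Markers of the gated type stood at 4670, 4580 and 4360 CPM in the T gate, 8120, 8405 and 8386 CPM in the B gate and 4993, 3864 and 4158 CPM in the NK gate. Neutrophil markers stood at 40237 and 34103 CPM in the aged and aged-GA neutrophil gates. Haemoglobin in the T gate stood at 4688, 38625 and 29580 CPM and NK markers at 41.0, 145 and 127 CPM, and their part in the results was not tested.

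**Figure D1:**
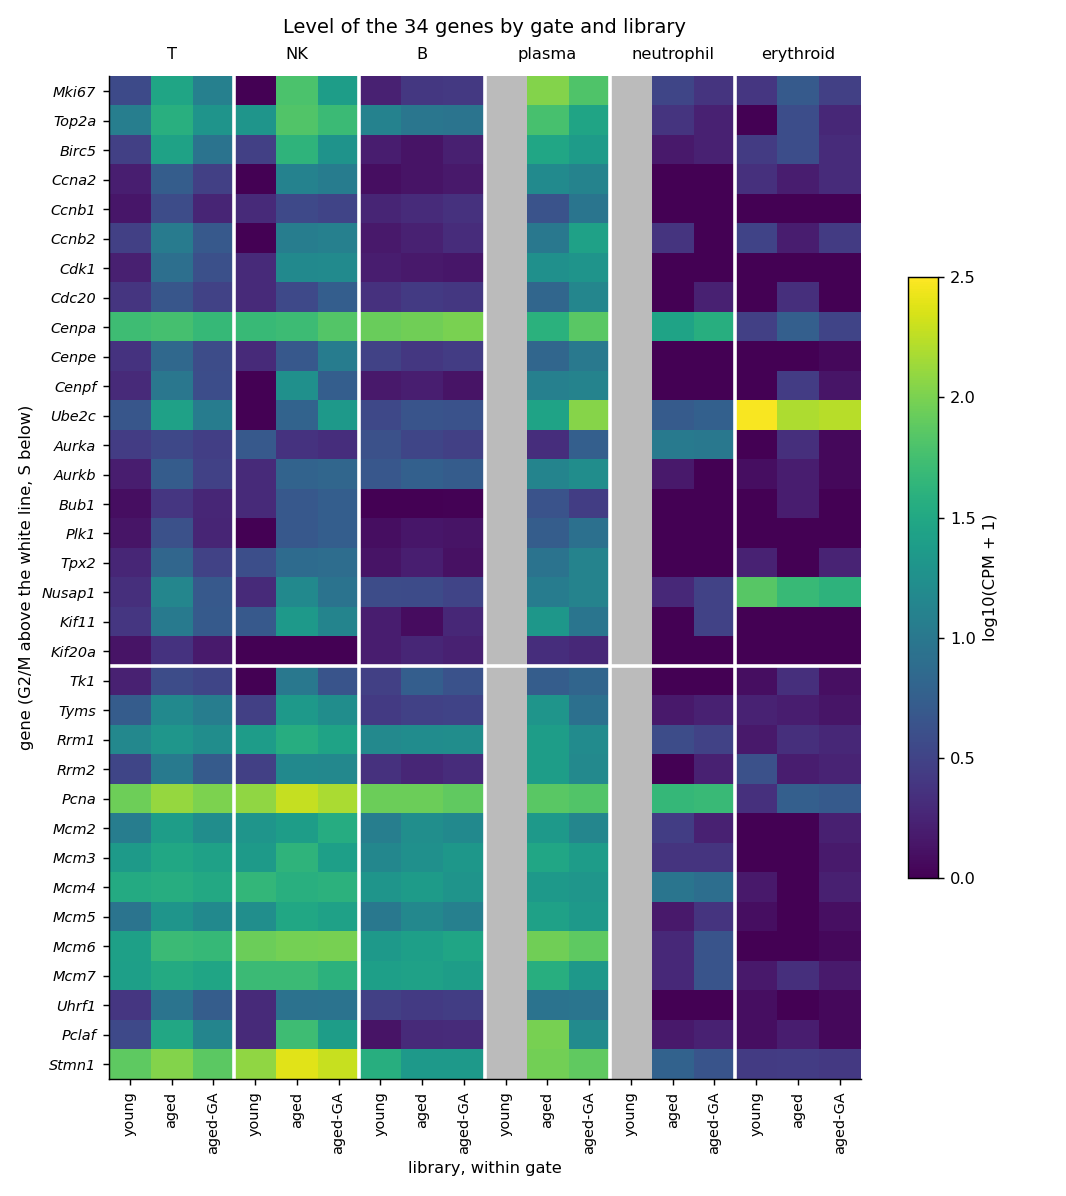
Level of each of the 34 genes (rows) in the 3 libraries (columns) of 6 gates, as log10(CPM + 1). Gates of under 50 cells, young plasma and young neutrophil, are grey. Pcna, Cenpa and Stmn1 were found across T, NK, B and plasma gates, and most G2/M genes were brighter in aged than in young T and NK cells. Ube2c and Nusap1 were the brightest in the erythroid gate.

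G2/M genes were higher in T cells of aged than of young mice, and intermediate in aged-GA mice. The 20 G2/M genes summed to 85.0 CPM (81.6 to 88.4) in young, 259 CPM (250 to 268) in aged and 129 CPM (124 to 133) in aged-GA T cells. The 14 S genes summed to 312, 509 and 387 CPM. No interval of one library overlapped that of another in either sum. The G2/M sum was higher in aged than in young cells by 1.61 on the log2 scale (1.53 to 1.69) and lower in aged-GA than in aged cells by a log2 ratio of -1.01 (-1.08 to -0.93). For the S sum the log2 ratios were 0.71 (0.66 to 0.75) and -0.40 (-0.44 to -0.35), so both differences were smaller than for G2/M. Cenpa made 60.9%, 21.9% and 36.0% of the G2/M sum, and without it the log2 ratios of that sum were 2.60 (2.49 to 2.71) and -1.29 (-1.38 to -1.21). With a mean over cells of each cell's CPM they were 1.02 and -0.59.

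**Figure D2:**
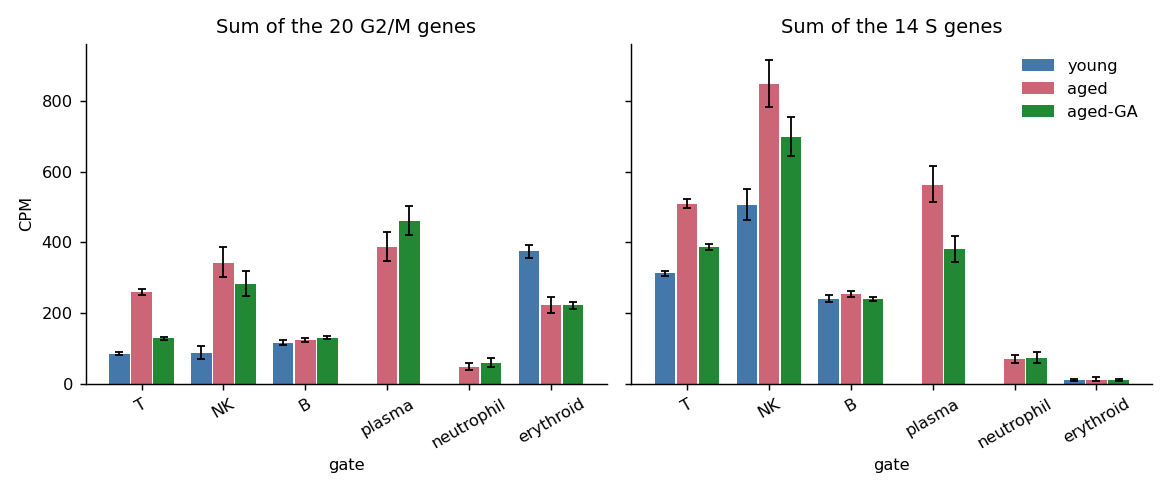
Summed CPM of the 20 G2/M genes (left) and the 14 S genes (right) by gate, with 1 bar per library and 95% counting intervals. In T cells the G2/M bars stand at 85.0, 259 and 129 CPM in young, aged and aged-GA mice, whereas the B bars lie between 116 and 130 CPM and the erythroid bars are highest in young mice (374 CPM).

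All 34 genes had at least 20 UMIs in each T cell comparison, and each had a higher ratio than 1 in aged against young T cells. With 0.5 UMI added to each count, 25 of 34 were at least 2-fold higher (18 of 20 G2/M and 7 of 14 S) and 0 lower, against 14% of 11909 genes higher and 2.7% lower. Their median log2 ratio was 2.09, against 0.35 over all genes. In aged-GA against aged T cells 17 of 34 were at least 2-fold lower (15 of 20 G2/M and 2 of 14 S) and 0 higher, against 2.57% of 11925 genes lower and 0.931% higher. The median log2 ratio of the members was -1.03, against -0.07 over all genes. The 2 comparisons share the aged library.

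Genes of chromatin in mitosis were lowest in young, intermediate in aged-GA and highest in aged T cells. Mki67 stood at 2.65, 28.7 and 11.2 CPM in young, aged and aged-GA T cells, and was found in 0.640%, 3.65% and 2.48% of cells. Top2a, the topoisomerase that untangles sister chromatids, stood at 10.7, 36.9 and 18.8 CPM. For both genes the intervals of the 3 libraries were apart. The log2 ratio of aged to young was 3.44 (3.07 to 3.82) for Mki67 and 1.79 (1.57 to 2.004) for Top2a. Top2a was less rare in young cells, with a UMI in 4.42%, 5.94% and 5.89% of cells.

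The cyclins and their kinase followed the same order. Cdk1 stood at 0.662, 7.10 and 3.05 CPM in young, aged and aged-GA T cells. Its partner Ccnb1 (cyclin B1) stood at 0.418, 2.84 and 0.796 CPM, and Ccnb2 (cyclin B2) at 1.99, 9.94 and 4.03 CPM. Ccna2 (cyclin A2), which acts from S phase to mitosis, stood at 0.627, 4.44 and 1.99 CPM. All 4 were highest in the aged library, but Ccnb1 rested on 12, 32 and 18 UMIs, and its young and aged-GA intervals overlapped. The Ccnb1 ratio of aged-GA to aged was -1.83 on the log2 scale (-2.75 to -0.96).

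Centromere and spindle checkpoint genes differed among themselves. Birc5 (survivin), a subunit of the chromosomal passenger complex, had the highest ratio of aged to young among G2/M genes. It stood at 1.95, 26.8 and 8.01 CPM, with log2 ratios of 3.78 (3.36 to 4.22) and -1.74 (-2.02 to -1.47). Aurkb, the kinase of the same complex, stood at 0.593, 4.35 and 2.04 CPM. The kinetochore genes Cenpe (1.32, 5.95 and 2.79 CPM) and Cenpf (0.976, 8.78 and 2.88 CPM) lay alongside. Cenpa, the histone H3 variant that marks centromeres, did not: it stood at 51.7, 56.8 and 46.3 CPM with a UMI in a similar share of cells of each library (21.5%, 19.7% and 21.2%). Its log2 ratio of aged to young was 0.14, with an interval from -0.00 to 0.27. Bub1, a checkpoint kinase, had only 7, 17 and 19 UMIs.

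Spindle motors and assembly factors were also highest in aged T cells. Nusap1, which bundles microtubules, stood at 1.19, 12.96 and 4.03 CPM, a log2 ratio of aged to young of 3.45 (2.90 to 4.03). Kif11, the motor that separates spindle poles, stood at 1.46, 9.49 and 4.07 CPM. Tpx2 (0.871, 5.68 and 2.12 CPM) and the mitotic kinase Plk1 (0.383, 3.19 and 0.796 CPM) showed the same order, and Plk1 had the lowest ratio of aged-GA to aged of all members (log2 -2.004, -2.91 to -1.15). Aurka, the kinase that Tpx2 activates, was the exception with 1.81, 2.48 and 1.90 CPM and overlapping intervals. Kif20a, a motor of cytokinesis, rested on 10, 15 and 12 UMIs.

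Both members that act with the anaphase-promoting complex, which marks cyclin B for destruction, were present. Ube2c, its ubiquitin-conjugating enzyme, stood at 3.63, 26.0 and 10.3 CPM, with log2 ratios of 2.84 (2.51 to 3.18) and -1.33 (-1.59 to -1.08). Cdc20, its activator, stood at 1.43, 3.64 and 2.12 CPM. Ube2c was also abundant in red cells (below). At the ratio of Ube2c to haemoglobin UMIs in the erythroid gate, the haemoglobin found in the T gate would come with 1.49, 6.39 and 5.44 CPM of Ube2c. The same ratio for Nusap1 gives 0.351, 2.001 and 1.27 CPM. Both genes lay above these values in all 3 libraries of the T gate. Whether red cell RNA came into the T gate at this ratio was not tested.

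S-phase genes fell into a rare and a common class. Pclaf, a partner of the sliding clamp PCNA, stood at 2.58, 30.6 and 12.8 CPM (young, aged, aged-GA), with log2 ratios of 3.57 (3.20 to 3.95) and -1.25 (-1.48 to -1.02). Uhrf1, which maintains DNA methylation at forks, stood at 1.46, 8.16 and 4.42 CPM, and Rrm2, the regulated subunit of ribonucleotide reductase, at 2.34, 9.41 and 4.25 CPM. Pcna itself stood at 88.1, 126 and 102 CPM and was found in 34.7%, 40.1% and 42.9% of cells. Its log2 ratio of aged to young was 0.52 (0.42 to 0.61). Stmn1, which destabilises microtubules and is listed here with S genes, stood at 75.1, 108 and 73.7 CPM.

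Genes of nucleotide supply showed the same 2 classes. Tyms (thymidylate synthase) stood at 4.39, 14.4 and 10.4 CPM and Tk1 (thymidine kinase) at 0.697, 2.84 and 2.30 CPM. Rrm1, the constant subunit of ribonucleotide reductase, was more even with 13.8, 19.4 and 15.7 CPM. The Tk1 interval of aged-GA against aged covered 0 (log2 -0.30, -0.97 to 0.38), as did those of Mcm4 and Mcm6.

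The 6 MCM genes, subunits of one hexamer, did not move by the same factor. They summed to 124, 190 and 162 CPM in young, aged and aged-GA T cells. Mcm5 stood at 8.09, 19.3 and 14.3 CPM, Mcm2 at 10.5, 23.5 and 15.8 CPM and Mcm6 at 25.6, 49.1 and 46.4 CPM. These 3 had log2 ratios of aged to young of 1.25, 1.17 and 0.94. Mcm3 (22.1, 30.1 and 25.9 CPM) and Mcm7 (25.03, 32.8 and 28.2 CPM) differed less, and for Mcm4 (32.5, 35.2 and 31.5 CPM) the interval covered 0 (log2 0.12, -0.05 to 0.29). In aged-GA T cells Mcm6 stayed closest to its aged level, with a log2 ratio of -0.08 (-0.23 to 0.07).

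**Figure D3:**
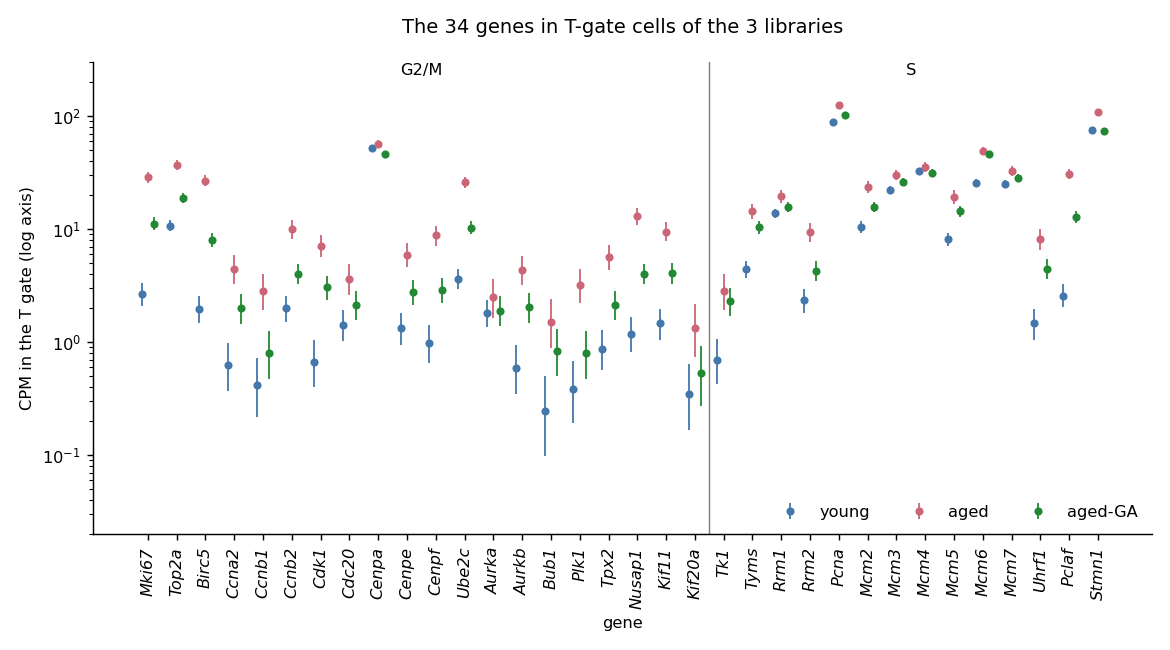
CPM of each of the 34 genes in T cells of the 3 libraries on a log axis, with 95% counting intervals (G2/M left, S right). Most genes below 10 CPM in young cells stand highest in aged cells with aged-GA cells between, as for Birc5 (1.95, 26.8 and 8.01 CPM), while Cenpa, Mcm4 and Aurka lie close together in the 3 libraries.

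Other genes of the cycle, from lists that hold no member, were counted in the same way in T cells. Of 25 further G2/M genes that passed the minimum (of 26 listed) 17 were at least 2-fold higher in aged than young cells, led by Ttk (log2 4.58), Hmmr (3.67) and Bub1b (3.67), while Kif23 (-0.58), Smc4 (-0.35) and Ndc80 (-0.31) were lowest. The minimum counts both libraries together, so a gene rare in young cells, such as Ttk (2 young and 23 aged UMIs), passed it only through its aged UMIs. Hmmr had 8 and 42 UMIs and Bub1b 7 and 37. Counts of the further lists depend on this, as do the shares over all genes. Of 18 further S genes 8 were at least 2-fold higher, with Ccne1 (2.27), Cdc6 (1.95) and Clspn (1.74) highest and Ung (-0.61) lowest. Of 17 genes of G1 and of cycle transcription 5 were, led by E2f2 (2.95), Mybl2 (2.38) and Cdk6 (1.81), with Ccnd3 (-0.15) and Myc (-0.07) at the other end. No list had a gene at least 2-fold lower. Over all genes 14% were at least 2-fold higher and 2.7% lower. Of 6 genes tied to quiescence, Btg1, Btg2, Tob1, Klf2, Foxo1 and Foxp1, 0 passed 2-fold in either direction, 5 had a ratio under 1 and the median log2 ratio was -0.32.

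In aged-GA against aged T cells 9 of 26 further G2/M genes were at least 2-fold lower, with Kif2c (-2.67), Bub1b (-2.10) and Ttk (-2.03) lowest. Of the further S genes 1 of 18 (Cdc6, -1.503) and of the G1 and transcription genes 1 of 17 (Mybl2, -2.17) passed 2-fold. Over all genes 2.57% were at least 2-fold lower and 0.931% higher. Kif2c, Ttk, Cdc6 and Mybl2 had at most 23 UMIs in either library. The quiescence genes had a median log2 ratio of 0.12, with Klf2 highest at 0.32.

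Few T cells held several members at an equal depth. When each cell was thinned to 1000 UMIs, 34 of 5307 young T cells (0.641%, 0.444 to 0.894), 46 of 2188 aged (2.10%, 1.54 to 2.79) and 48 of 3544 aged-GA T cells (1.35%, 1.00 to 1.79) held UMIs of at least 3 of the 34 genes. Without thinning 20.03%, 25.1% and 31.2% of T cells did so, in libraries whose median T cell held 5037, 4643 and 5866 UMIs. Each share rests on 1 draw of the thinning, which the intervals do not cover, and another draw was made only for all kept cells. The log2 ratio of the thinned shares was 1.71 (1.04 to 2.40) for aged against young and -0.63 (-1.25 to -0.02) for aged-GA against aged. In the full counts those cells, which were chosen by their member UMIs, held 15.2%, 65.8% and 41.2% of the G2/M UMIs of the T gate and 6.91%, 35.1% and 19.9% of its S UMIs. In the remaining T cells the G2/M sum was 72.7 (69.6 to 75.9), 92.3 (86.7 to 98.2) and 77.3 CPM (73.7 to 81.0). Their S sum was 293 (287 to 300), 345 (334 to 356) and 317 CPM (310 to 324), with intervals apart, while those of the young and aged-GA G2/M sums overlapped. In the whole T gate the median log2 ratio over all genes was itself 0.35 for aged against young. Whether members differed more than other genes in the remaining cells was not tested. Cells that held 50% of the G2/M UMIs numbered 350, 12 and 65.

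**Figure D4:**
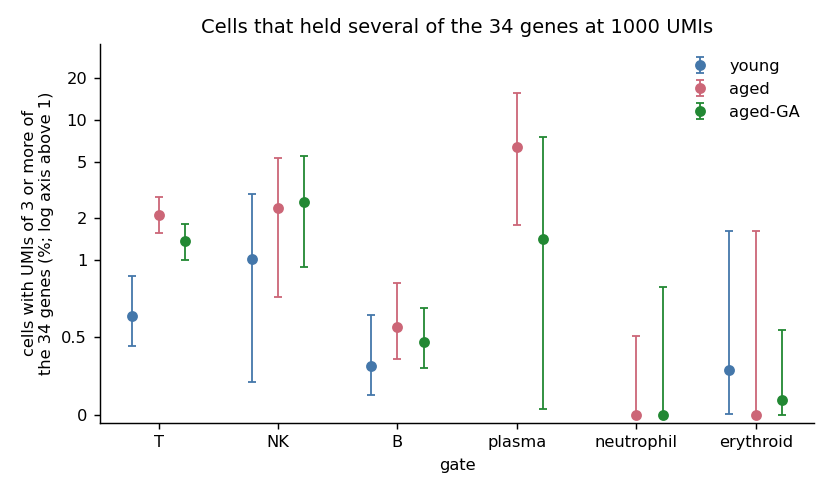
Share of cells with UMIs of at least 3 of the 34 genes after thinning to 1000 UMIs, by gate and library, with exact 95% binomial intervals (axis linear below 1%, log above). T cells stand at 0.641%, 2.10% and 1.35% in young, aged and aged-GA mice, and 0 cells of the neutrophil gate reached 3 genes.

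Many T cells with a UMI of Mki67 held other members as well. Pooled over libraries, 81 of 202 T cells with a Mki67 UMI (40.1%) also held UMIs of at least 5 other members, against 5 of 58 B cells (8.62%) and 8 of 16 NK cells (50%). Median depths were 7152 UMIs in the T cells, 5218.5 in the B cells and 7840.5 in the NK cells. In the T cells with Mki67 Pclaf stood at 358 CPM, against 0.988 CPM in T cells without it. Birc5 stood at 262 against 1.04 CPM, and Stmn1 at 794 against 59.3 CPM. Cenpa (184 against 46.7 CPM) and Mcm4 (59.5 against 31.8 CPM) were the least tied to Mki67 among these.

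A gene used by few cells at high level shows many UMIs per cell, and this was measured as the share of its UMIs in cells with at least 3 of them. In the T gate of the pooled libraries the share was 88.9% for Pclaf, 87.8% for Birc5, 73.8% for Ccnb2, 72.9% for Cenpf and 72.2% for Mki67. It was 19.2% for Cenpa, 23.9% for Pcna and 8.34% for Mcm4, which were spread thinly over 2325, 4242 and 1720 cells. In all, 12 of 34 genes had a share of at least 50% and 4 one below 10%. In the B gate 0 of 34 reached 50% and 29 were below 10%, with Ube2c (26.5%) and Ccnb2 (25.6%) highest.

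**Figure D5:**
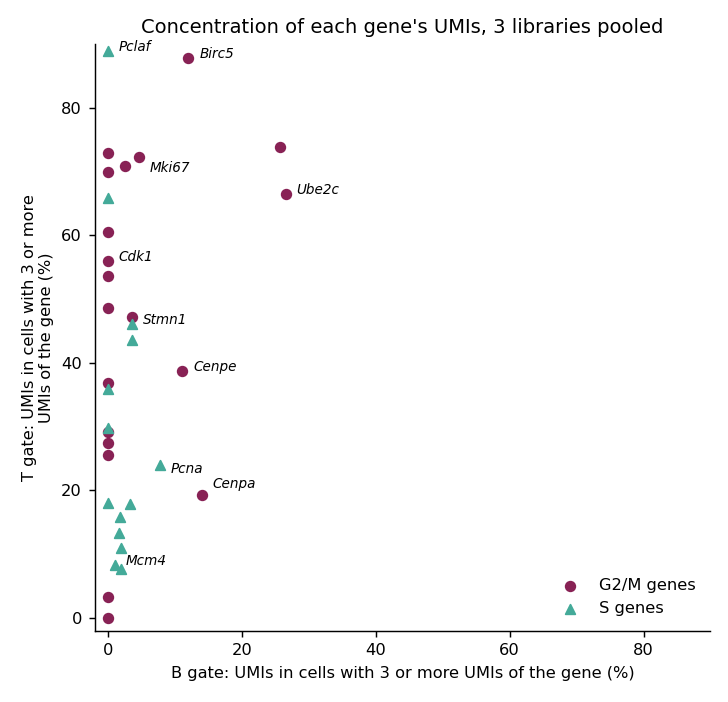
For each of the 34 genes, the percentage of its UMIs in cells with 3 or more UMIs of it in the B gate (x axis) and the T gate (y axis), 3 libraries pooled. Most points lie near the y axis: Pclaf and Birc5 reach 88.9% and 87.8% in T cells, while no gene passes 26.5% in B cells.

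In NK cells too the G2/M sum was higher in aged than in young mice, at much lower counts. The G2/M sum of NK cells was 86.2 CPM (68.9 to 106), 342 CPM (302 to 386) and 282 CPM (248 to 320) in the order above, from 86, 263 and 248 UMIs. The log2 ratio was 1.99 (1.63 to 2.36) in aged over young and -0.28 (-0.53 to -0.02) for aged-GA against aged. Within the aged NK gate 3 cells held 50% of the G2/M UMIs, and 2 did in aged-GA mice. Without the top 2 cells of each library the sums were 81.0, 184 and 104 CPM. The S sum was 505, 848 and 698 CPM, and 509, 633 and 594 CPM without the top 2 cells of each library. At 1000 UMIs, UMIs of at least 3 members were held by 1.02% (0.211 to 2.95), 2.34% (0.763 to 5.37) and 2.58% (0.951 to 5.52) of NK cells. These intervals overlapped, and the share was not lower in aged-GA than in aged mice, unlike the sum. In the NK cells left without those cells, which were chosen by their member UMIs, the S sum was 467 (425 to 512), 473 (424 to 525) and 459 CPM (414 to 508). The G2/M sum there was 84.2 (66.9 to 104), 120 (96.0 to 148) and 74.2 CPM (56.8 to 95.4).

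Mki67 had 0 UMIs in young NK cells, which allows a level of up to 3.01 CPM at a limit of 3 UMIs (exact upper bound 3.70 CPM), and stood at 61.1 and 23.9 CPM in aged and aged-GA NK cells. Birc5 stood at 2.004, 41.6 and 18.2 CPM and Pclaf at 1.00, 52.0 and 23.9 CPM. Ube2c went another way, with 0, 4 and 19 UMIs, or 5.20 and 21.6 CPM in the aged and aged-GA libraries. Of the 19 aged-GA UMIs, 18 came from 5 cells with a Mki67 UMI. Stmn1 (119, 244 and 195 CPM) and Pcna (120, 190 and 150 CPM) were common in all 3 libraries. Of the Stmn1 UMIs, 129 in aged and 100 in aged-GA NK cells came from the 11 and 5 cells with a Mki67 UMI. The other 207 and 228 cells held 59 and 71, or 84.9 and 86.3 CPM. Pcna stood at 141 and 134 CPM in those other cells. Of 15 genes with at least 20 UMIs 6 were at least 2-fold higher in aged than young cells and 0 lower, against 5.25% of 6958 genes higher and 2.62% lower. This minimum counts both libraries together. A member rare in young NK cells, such as Mki67, thus passed it only through its aged UMIs, and members rare in both libraries were not counted. The counts of 6 and 0 depend on this, as do the shares over all genes. Of 19 genes 1 was at least 2-fold higher and 3 lower in aged-GA than aged cells, against 1.93% and 1.62% of 6926 genes.

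B cells differed little between libraries. Their G2/M sum was 116, 123 and 130 CPM in young, aged and aged-GA mice, of which Cenpa alone made 71.7%, 73.7% and 75.8%. The log2 ratios were 0.08 (-0.03 to 0.19) and 0.08 (-0.00 to 0.17). The S sum was 241, 254 and 239 CPM. Mki67 stood at 0.699, 1.53 and 1.59 CPM, Pclaf at 0.350, 0.975 and 1.03 CPM, and Bub1 had 0, 0 and 1 UMIs. The rare G2/M genes were therefore near the limit of detection in B cells, and Cenpa and the S genes made up nearly the whole sum.

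Of 23 members with enough UMIs in B cells 2 (Mki67 and Tk1) were at least 2-fold higher in aged than young mice and 0 lower, against 8.18% of 11139 genes higher and 2.27% lower. Stmn1 was the member with the lowest ratio, at 35.9, 21.2 and 20.9 CPM and a log2 ratio of -0.76 (-0.99 to -0.52). In aged-GA against aged B cells 1 of 28 (Kif11, from 3 and 21 UMIs) was at least 2-fold higher and 0 lower, against 0.935% and 1.55% of 11876 genes. Ube2c stood at 2.45, 3.48 and 3.27 CPM, and the haemoglobin of the B gate would come with 1.21, 5.23 and 4.31 CPM at the ratio of the erythroid gate. At the ratio of red cell barcodes with fewer than 200 genes the amounts would be 0.625, 2.95 and 2.12 CPM. In aged and aged-GA B cells Ube2c lay between both estimates, and whether red cell RNA came in at either ratio was not tested. The share of B cells with UMIs of at least 3 members at 1000 UMIs was 0.313%, 0.567% and 0.467%, with overlapping intervals.

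Plasma cells, which secrete antibody and arise from dividing plasmablasts, had the highest Mki67 level of the 6 gates in aged and aged-GA mice, and their G2/M sum rested on few cells. The gate was not alike in the 2 libraries: the median aged cell held 308.5 UMIs of the 8 plasma markers and 25.5 of the B markers, and the median aged-GA cell 22 and 40. What part this has in the differences below was not tested. In the aged plasma gate the G2/M sum was 387 CPM (347 to 430), and in the aged-GA gate 459 CPM (419 to 501), above the B gate by 1.66 and 1.82 on the log2 scale. A single cell held 184 of 344 G2/M UMIs (53.5%) in aged and 269 of 493 (54.6%) in aged-GA mice. Without that cell the sums were 188 and 215 CPM, and the log2 ratios to the B gate 0.61 and 0.73. The S sum was 563 CPM in the aged and 380 CPM in the aged-GA gate (log2 -0.57, -0.76 to -0.38). The aged S sum rested on few cells. Without the 2 cells of each library with most G2/M UMIs the S sums were 264 and 262 CPM. After thinning, 4 aged cells and 1 aged-GA cell held UMIs of at least 3 members. In the full counts these cells, chosen by their member UMIs, held 75.6% and 7.60% of the S UMIs. In the remaining cells the S sum was 155 (128 to 184) and 362 CPM (327 to 401), the opposite order.

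Mki67 stood at 107 and 64.3 CPM in the plasma gate, with a UMI in 43.5% of aged and 32.4% of aged-GA cells at median depths of 15514.5 and 15934 UMIs. After thinning to 1000 UMIs it was found in 6.45% and 5.63% of cells. In both libraries pooled with the young one, 65.2% of its UMIs were in cells with at least 3 of them, and 26 of 34 members passed 50% by this measure. Mcm6 stood at 90.1 and 74.5 CPM, with a UMI in 45.2% and 47.9% of cells. Pclaf, in contrast, was held by 8.06% and 4.23% of cells and stood at 96.8 and 14.9 CPM (log2 -2.70, -3.57 to -1.92). Ube2c stood at 27.0 and 110 CPM (log2 2.02, 1.38 to 2.72). Of 118 Ube2c UMIs in the aged-GA gate, 90 came from 1 cell. Of 25 members with enough UMIs 2 (Ube2c and Ccnb2) were at least 2-fold higher and 4 (Top2a, Kif11, Tyms and Pclaf) lower in aged-GA than aged cells, against 3.74% and 2.48% of 6329 genes. After thinning, 4 of 62 aged (6.45%, 1.79 to 15.7) and 1 of 71 aged-GA plasma cells (1.41%, 0.0357 to 7.60) held UMIs of at least 3 members.

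Neutrophils, which leave the bone marrow after their last division, had the lowest G2/M sums of the 6 gates in aged and aged-GA mice. These were 48.4 and 57.7 CPM in aged and aged-GA mice, with a log2 ratio of 0.25 (-0.18 to 0.68), and the S sums were 68.5 and 73.0 CPM. Cenpa (27.5 and 36.2 CPM) and Pcna (45.6 and 48.0 CPM) made most of them. Aurka stood at 9.78 and 9.04 CPM, above its T cell levels. Cdk1, Ccna2, Ccnb1, Plk1, Tpx2, Cenpe, Cenpf, Bub1, Kif20a, Tk1 and Uhrf1 had 0 UMIs in both libraries. Of the 34 genes 4 passed the minimum, and 0 were 2-fold different, against 3.19% of 6667 genes higher and 1.35% lower. UMIs of at least 3 members were held by 0 of 726 aged and 0 of 446 aged-GA cells at 1000 UMIs. At a limit of 3 cells this allows shares of up to 0.413% and 0.673%, and the exact upper bounds were 0.507% and 0.824%.

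In CPM of all UMIs, haemoglobin included, red cells held 2 of the 20 G2/M genes at high level and the rest at low level. In the erythroid gate Ube2c stood at 295 CPM (279 to 312) in young red cells, 153 (135 to 173) in aged ones and 171 (162 to 180) in aged-GA ones, and was found in 74.4%, 53.5% and 52.1% of cells. Nusap1 stood at 69.6, 47.9 and 39.99 CPM. The other 18 G2/M genes summed to 9.59, 21.0 and 10.5 CPM and the 14 S genes to 9.34, 11.7 and 11.0 CPM, so that Ube2c alone made 78.8%, 68.9% and 77.2% of the G2/M sum. Cdk1, Ccnb1, Plk1, Kif11 and Kif20a had 0 UMIs in all 3 libraries. Haemoglobin made 92.9%, 92.4% and 92.9% of UMIs of the gate, so the low level of the other 18 depends on this total. In totals without haemoglobin, the other 18 G2/M genes stood at 136, 277 and 147 CPM in the erythroid gate. In the T gate they stood at 80.5, 229 and 118 CPM, and the aged and aged-GA intervals of both gates overlapped. The 14 S genes, counted alike, stayed lower in red cells, at 132, 154 and 155 CPM. Their T gate levels were 314, 530 and 399 CPM.

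Ube2c was lower in aged than in young red cells, with a log2 ratio of -0.95 (-1.15 to -0.75), and close in aged-GA and aged cells (0.16, -0.03 to 0.36). Nusap1 gave log2 ratios of -0.54 (-0.91 to -0.18) and -0.26 (-0.62 to 0.11). With a minimum of 500 genes per cell the Ube2c ratio of aged to young was 0.33 (-1.40 to 2.26), from 4 and 13 cells. Other red cell genes of the gate moved as well: Bpgm stood at 3102, 1230 and 1930 CPM, Alas2 at 1803, 1506 and 2170 CPM and Slc4a1 at 135, 135 and 92.8 CPM. Their part in the Ube2c difference was not tested. Young red cells were deeper, with medians of 11760.5, 7271.5 and 7355 UMIs. After thinning to 1000 UMIs a UMI of Ube2c was found in 21.8% (17.6 to 26.5) of young, 10.2% (6.56 to 14.9) of aged and 13.3% (11.2 to 15.5) of aged-GA red cells. The shares in B cells, thinned alike, were 0.0894%, 0.173% and 0.206%. Only 2 members had at least 20 UMIs over the young and aged libraries, and neither passed 2-fold, against 34% of 1112 genes higher and 11.6% lower. In aged-GA against aged red cells 0 of 5 were at least 2-fold higher and 2 (Mki67 and Cenpa, each with an interval that covered 0) lower, against 3.28% and 16.8% of 2380 genes.

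With all kept cells taken as one population and thinned to 1000 UMIs, UMIs of at least 3 members were held by 51 of 8821 young cells (0.578%, 0.431 to 0.759). The same was true of 100 of 10154 cells in the aged library (0.985%, 0.802 to 1.20) and of 101 of 12570 in the aged-GA library (0.804%, 0.655 to 0.975). The log2 ratio was 0.77 (0.27 to 1.28) for aged against young and -0.29 (-0.71 to 0.12) for aged-GA against aged. At a minimum of 2 members the first ratio was 0.0726 (-0.12 to 0.26). The second excluded 0 at a minimum of 5 members (-1.06, -1.89 to -0.26), with another draw of the 1000 UMIs (-0.53, -0.94 to -0.11) and with no limit of mitochondrial UMIs (-0.45, -0.84 to -0.05). Cells of the T gate were 66.7%, 46% and 47.5% of these, and B cells 13.7%, 23% and 24.8%. Scrublet called 4, 4 and 5 of them doublets, and libraries in which the type makeup differs cannot be compared by this share without the values by gate given above.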

How the data were processed

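Reads were mapped to mm10 by the authors with Cell Ranger (the methods name another release than the matrix headers, which say 5.0.0), and the deposited values are whole UMI counts without normalization. Cells were kept, as in the methods of the study, if they had 200 genes or more, no more than 90% of the highest gene number and no more than 7.5% mitochondrial UMIs. The 34 members, the further gene lists, the gates and the motifs were chosen with earlier results of these data known, and every member was named by rule, with the 3 highest and 3 lowest genes of further lists eligible. Counts were summed over the cells of a gate and divided by their total. A NK cell had fewer than 2 T markers, and a cell that met both the plasma and the B gate was placed in the plasma gate. A cell that otherwise met several types was left out as mixed. Mixed cells numbered 496, 1345 and 1509 in young, aged and aged-GA libraries, or 5.60%, 13.1% and 11.9% of kept cells. Of these, 8, 21 and 35 met the T and plasma gates and no other.

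Intervals are exact (Poisson for levels, Clopper-Pearson for shares, conditional binomial for ratios). Those of levels and their ratios take each UMI as independent, although few cells held many UMIs of some members. Ratios of single genes are printed without an added UMI. For 2-fold calls and medians, genes needed 20 UMIs over both libraries and 0.5 UMI was added. Scrublet (scanpy 1.11.5) called 4.94%, 4.41% and 5.32% of kept cells doublets at a score of 0.2, a threshold set for all libraries after the automatic one called 0 cells of the aged-GA library. Doublets were kept except in an alternative. Depth was 58894294, 82260961 and 98155671 UMIs in young, aged and aged-GA libraries. The calculations were tested on simulated data, without clustering of UMIs in cells, and used numpy 2.4.6, scipy 1.17.1 and pandas 2.3.3.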

Additional observations from a re-analysis of the deposited data

Results flagged for a closer look

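The direction of the G2/M sum differed between cell types under the same comparison, and this difference was not tested. Aged over young, the log2 ratio was 1.61 in T cells and 1.99 in NK cells but -0.75 in red cells, where Ube2c and Nusap1 made most of the sum. Aged-GA over aged, it was -1.01 in T cells and -0.28 in NK cells but 0.25 in the plasma gate, where 1 cell held over 50% of the G2/M UMIs in each library.

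Barcodes with at least 50% haemoglobin and fewer than 200 genes, which entered no comparison, held the 2 red cell members as well. They numbered 941, 5460 and 3812 (young, aged, aged-GA). In them Ube2c stood at 156, 89.5 and 86.0 CPM, and Nusap1 at 39.5, 19.7 and 20.8 CPM. The other 18 G2/M genes summed to 4.48, 4.99 and 4.47 CPM there. These barcodes are given because they lie outside the kept cells and both levels exceed the limit that a count of 0 allows.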

How the results depend on the processing

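Of 132 alternative values, 98 moved by less than the counting interval of the value reported (for medians by less than 0.1, for counts by less than 1.5 times), 33 moved by more and 1 reversed, while 127 kept the sign. The values below are log2 ratios, in the order of aged over young and aged-GA over aged for T cells and all kept cells, and of aged and aged-GA for plasma over B cells. With at least 2 markers per gate the T cell ratios were 1.01 and -0.70 for the 34-gene sum and 1.73 and -1.30 for the G2/M sum, and the plasma over B ratios 1.14 and 0.95; with at least 4 markers the latter was 2.10 in aged-GA mice. With a mean over cells of each cell's CPM they were 0.57 and -0.31 (34-gene sum), 1.02 and -0.59 (G2/M sum) and 0.998 and 1.21 (plasma over B). Without the gene with most UMIs (Pcna of 34, Cenpa of G2/M) they were 1.05 and -0.63, 2.60 and -1.29, and 3.43 and 3.62. Without the top plasma cell plasma over B was 0.61 and 0.73. The ratio of the share of cells with several members was 0.0726 and 0.02 at a minimum of 2 members, and 2.01 and -1.06 at 5; other draws of the thinning, other depths and other cell filters gave 0.35 to 1.10 and -0.53 to -0.05. Members at least 2-fold higher in aged T cells numbered 15, against 25, with a minimum of 100 UMIs per gene. Members with fewer UMIs, such as Ccnb1 and Bub1, were not counted there, whatever their ratio, so 15 and 25 are not counts of the same set of members. Those at least 2-fold lower in aged-GA T cells numbered 11, against 17, with a pseudocount of 1 CPM. The share over all genes was not computed at either setting. Ube2c in red cells, aged over young, was 0.33 with a minimum of 500 genes, from 5 UMIs in 4 young and 9 in 13 aged cells, and the cause was not tested. The alternatives for the G2/M sum in T cells, the counts of members and the red cells were chosen after seeing the data, as were the cell filters and gates for medians, the plasma cell left out, the second draw and the doublet threshold. No paired analysis was possible because each group was 1 library. For the same reason no library could be left out. The compared NK and plasma gates held the fewest UMIs, 769239 to 1073833 per library, which limits the rare G2/M genes there.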

Other observations

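The T subset genes were read in T cells with and without a Mki67 UMI, and were chosen after the values of the members were seen. Foxp3, the factor that defines regulatory T cells, stood at 24.8 CPM in the 202 T cells with Mki67 and at 5.68 CPM in the rest (log2 2.13, 1.64 to 2.58, 3 libraries pooled). By library the Foxp3 ratio was 2.68 (1.59 to 3.61) in young, 2.20 (1.52 to 2.83) in aged and 0.87 (-0.37 to 1.90) in aged-GA T cells, from 10, 27 and 8 UMIs in cells with Mki67. Cd4 had log2 ratios of -0.76 (-1.83 to 0.12), 0.09 (-0.30 to 0.46) and 0.41 (0.03 to 0.77) by library, and Cd8b1 of -0.54, -0.50 and -0.25 with intervals below 0. For Cd8a they were -0.49 (-1.14 to 0.08), -0.12 (-0.41 to 0.17) and -0.25 (-0.52 to 0.01), and each interval covered 0. The cells with Mki67 were deeper (median 7152 against 5140.5 UMIs).

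Cells outside the gates held members too. The 248 ungated aged cells had a G2/M sum of 492 CPM, against 108 CPM in 94 young and 112 CPM in 136 aged-GA ungated cells. Of its 375 G2/M UMIs, 176 came from a cell with 23718 UMIs, 4357 genes and 29 of 34 members, and 124 from a cell with 20748 UMIs, 3610 genes and 31 members. Without both, the sum was 104 CPM. The second of these cells carried 30.8% haemoglobin UMIs and would enter the red cell gate at a limit of 20%, where it lifted the other 18 G2/M genes of the aged library from 21.0 to 79.0 CPM. Neither cell was called a doublet. In monocytes the G2/M sum was 48.3, 73.6 and 78.1 CPM (49, 1020 and 273 cells of young, aged and aged-GA mice) and the S sum 205, 162 and 183 CPM.

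In B cells of aged against young mice, 1 of 6 genes tied to quiescence (Tob1, log2 -1.27) was at least 2-fold lower and 0 higher, 4 had a ratio under 1 and 2 above, and their median log2 ratio was -0.66 against 0.26 over all genes. Of 16 genes of G1 and transcription 2 (Rbl1, 1.05, and E2f2, 1.02) were at least 2-fold higher and 2 (Ccnd1, -1.17, and Myc, -1.23) lower. Of 17 further S genes 0 were higher and 1 (Ccne2, -1.65, from 11 and 21 UMIs) lower, and of 16 further G2/M genes 1 (Racgap1, 1.06) was higher and 0 lower. Over all genes 8.18% were higher and 2.27% lower.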
